A study of Mus musculus with 32 samples.

Results

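The integrated stress response and the cytokine gene Gdf15 were followed through 10 genes (Gdf15, Atf3, Atf4, Atf5, Ddit3, Trib3, Chac1, Asns, Fgf21 and Sesn2), chosen by symbol from the 54532 genes of the count table. They occupy 11 rows, since Ddit3 has 2. Kidney RNA was sequenced from wild-type C57BL/6 mice aged 6 to 8 weeks at the study, with 4 male and 4 female mice at each of Day 0, Day 2, Day 3 and Day 5, which gave 32 libraries in 8 groups. Mice of Days 2, 3 and 5 had received a single intraperitoneal dose of 20 mg/kg cisplatin, a platinum drug that crosslinks DNA and injures the kidney tubule, and Day 0 was the healthy state. The labels name cisplatin for the Day 0 females as well but not for the Day 0 males, and both groups were taken as untreated, as the study describes Day 0.

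Cells that lack amino acids, accumulate unfolded protein in the endoplasmic reticulum, lose mitochondrial function or meet double-stranded RNA phosphorylate the translation factor eIF2alpha. Bulk protein synthesis then slows while the messenger RNA of ATF4 is translated more, so that ATF4 can act with little change in its own transcript. ATF4 and the factors it induces (ATF3, ATF5 and CHOP, the product of Ddit3) switch on genes of amino acid supply, redox balance and cell death. Gdf15, a cytokine that acts on the brainstem to reduce appetite, and Sesn2, a sensor of leucine that restrains mTORC1, are targets of ATF4 and also of p53, the transcription factor activated by DNA damage.

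ATF4 with a C/EBP partner binds the C/EBP-ATF response element, and the windows that hold these letters are shown because they are the DNA through which the pathway is known to act on its targets. The motif, searched as TGATGNAA on both strands from 250 bases before to 50 bases after the transcription start in RefSeq promoters of mouse build GRCm38.p6, was present in 5 of the 10 genes and in 4.51% of all 27025 genes with a promoter. The match of Trib3, a pseudokinase that dampens ATF4, lay 15 bases after the start, and the other matches lay upstream as follows, with the motif or its reverse complement in capitals.
Atf3, chr1:191183427-191183452, minus strand, first motif base at -110: ttctcgcacTTGCATCAccaagtccg
Chac1, chr2:119351040-119351065, plus strand, first motif base at -193: tccctgccgTTGCATCActcctgcca
Asns, chr6:7693216-7693241, minus strand, first motif base at -23: ccagccacaTGATGAAActtcccgca
Fgf21, chr7:45615613-45615638, minus strand, first motif base at -139: acccccccaTTGCATCAtccgtccag
The cyclic AMP response element TGACGTCA and the endoplasmic reticulum stress element, searched the same way, were in 0 of the 10 genes, against 2.03% and 0.137% of all genes. A match is only a description of these letters.

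Libraries held between 16502107 and 35961325 counts. The mitochondrial genome took 42.5 to 79.8% of the counts in male Day 5, 9.3 to 77.9% in female Day 5 and at most 24% elsewhere. Kidney markers were present in every library, and summed proximal tubule markers ran from 20800 to 89000 CPM (a count scaled by library size with TMM factors) in male Day 0, 11700 to 23600 CPM at Day 2, 15700 to 24200 CPM at Day 3 and 1410 to 8720 CPM at Day 5. In females they ran from 13400 to 44700 CPM at Day 0, 6370 to 13100 CPM at Day 2, 5160 to 13300 CPM at Day 3 and 4560 to 10100 CPM at Day 5. Every treated female lay below every Day 0 female, at Days 2 and 3 by a narrow margin (at most 13300 against at least 13400 CPM). Among the 8 markers, Kap reached 79500 CPM and the next highest, Slc34a1, 5780 CPM, so the highest sums rest mostly on Kap. The part of these lower marker levels in the values of the genes described, at any day, was not tested. In such bulk tissue, fewer cells of a type and less RNA per cell cannot be told apart. The library labelled male Day 5 mouse 1 held 232 CPM of Xist, against 0 to 38.6 CPM in the other male libraries and 68.4 to 324 CPM in female libraries. The other Day 5 males held 38.6, 14.3 and 8.28 CPM of Xist. For the Y-linked Ddx3y, the library labelled mouse 1 held 10.7 CPM, against 14.5 to 48.5 CPM in the other male and 0 to 2.4 CPM in female libraries. In female Day 0 mouse 2, summed hepatocyte markers reached 12900 CPM, against 282 to 514 CPM in the other Day 0 females. Adrenal markers summed to 2.98 to 234 CPM in female Day 0, 2.6 to 4.23 CPM in female Day 2, 19.5 to 1590 CPM in female Day 3 and 406 to 1030 CPM in female Day 5. In males they summed to 0.729 to 57.7 CPM at Day 0, 7.95 to 383 CPM at Day 2, 3.49 to 42.7 CPM at Day 3 and 26.4 to 123 CPM at Day 5, where 3 of the 4 tested were called higher (Cyp11b1, Cyp21a1 and Star), beside 19.2% of all genes called. Female Day 3 mouse 2 held 10.4 CPM of the tubule injury gene Lcn2 where the other mice of its group held 60.4 to 190 CPM. For the 10 genes, edgeR calls gained or lost without one of the single libraries named here are given with and without it, but not every other value is. The named pathway genes are given so together, whereas the adrenal markers were high in all 4 female Day 5 mice, which cannot be set aside.

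Levels differed widely between the genes. On the deposited FPKM scale, which divides by gene length, the mean level over the 32 libraries was 34.1 for Atf4, 30.3 for Gdf15, 23.4 for Sesn2, 13.7 for Atf5 and 8.63 for Ddit3. Asns had a mean of 3.13 FPKM, Atf3 2.9, Chac1 1.14, Trib3 1.11 and Fgf21 0.0534. Gdf15 spanned 4.22 to 81.6 FPKM across mice, while Atf4 stayed between 20.5 and 56.9 FPKM.

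**Figure D1:**
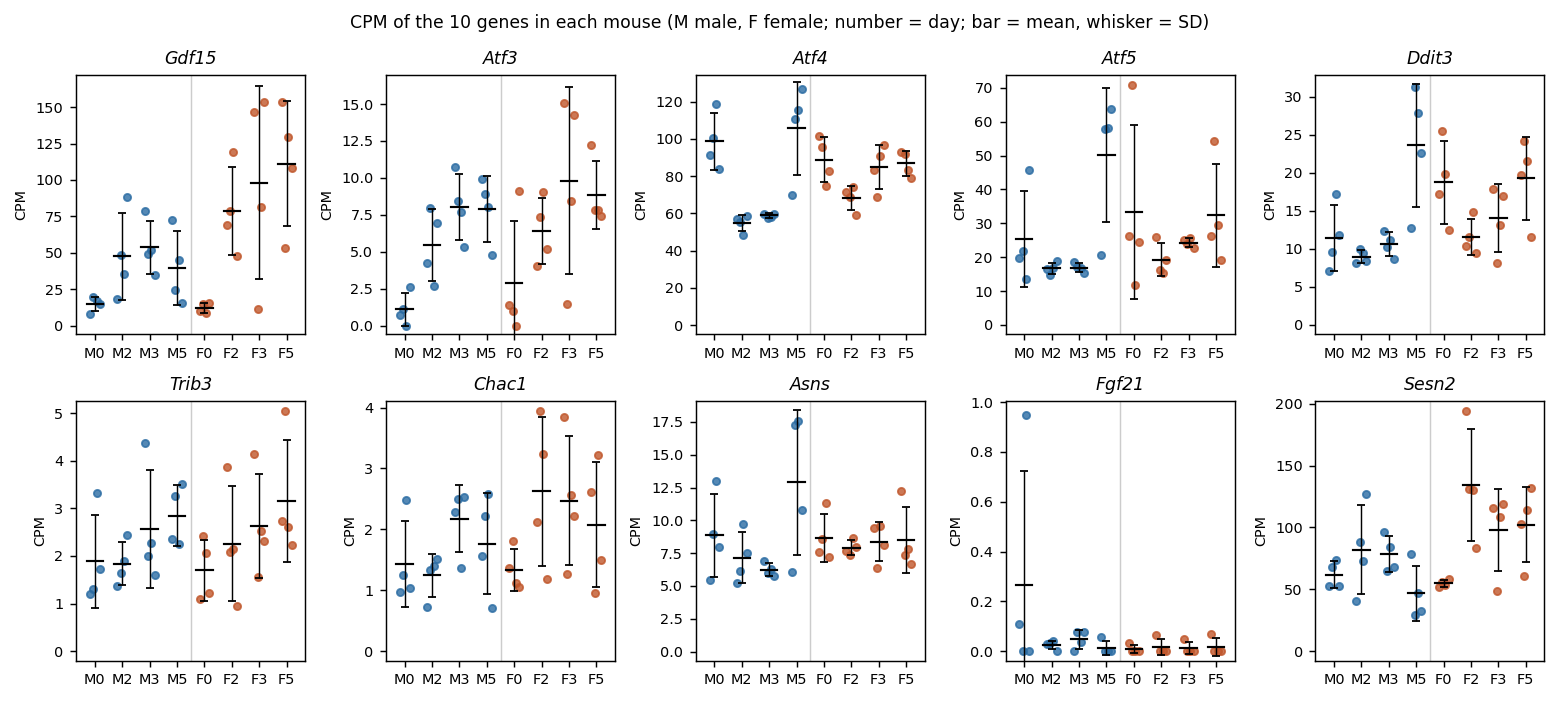
CPM of each of the 10 genes (vertical axis, linear) in each mouse of the 8 groups (M male, F female, number for the day), with points for mice, bars for the group mean and whiskers for the SD (n = 4), drawn no lower than the axis. Gdf15 lies between 8.13 and 19.7 CPM in all Day 0 mice, and Fgf21 exceeds 0.2 CPM in a single male Day 0 mouse.

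The first question was whether cisplatin changed these genes over time within each sex, and it was tested with edgeR's quasi-likelihood test over all genes, with a gene called at a Benjamini-Hochberg adjusted p under 0.05. Gdf15 (chr8:70629393-70632456, minus strand, GRCm38) was the gene called most often, and it rose in females on all 3 days and in males at Day 3. Its CPM values in female Day 0 mice 1 to 4 were 9.82, 14.8, 8.52 and 15.5. The values were 69.1, 78.4, 120 and 48 CPM at Day 2, 146, 11.2, 81.1 and 154 CPM at Day 3, and 154, 53, 130 and 108 CPM at Day 5. Every female mouse of Days 2 and 5 lay above every Day 0 female, and at Day 3 mouse 2 lay among the Day 0 values.

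The log2 fold changes of Gdf15 in females were 2.69 (SE 0.329, adjusted p = 0.00576) at Day 2, 3.00 (SE 0.671, adjusted p = 0.0479) at Day 3 and 3.18 (SE 0.349, adjusted p = 0.00427) at Day 5. The Day 2 and Day 5 calls held in all 8 fits that left out 1 mouse. The Day 3 call held in 2 of 8, when Day 3 mouse 2 (log2 fold change 3.37, adjusted p = 0.00375) or Day 0 mouse 4 was left out. It was lost without any of Day 0 mice 1, 2 and 3 and Day 3 mice 1, 3 and 4, at log2 fold changes of 2.70 to 3.10 and adjusted p of 0.0772 to 0.168. In female Day 3, adrenal markers summed to 22.5 CPM in mouse 1, which held 146 CPM of Gdf15, and to 19.5 CPM in mouse 2, which held 11.2 CPM of Gdf15. They summed to 1280 and 1590 CPM in mice 3 and 4. Gdf15 was also called at Day 2, where these markers summed to at most 4.23 CPM, and their part in the Day 3 and Day 5 values of the genes described was not tested. Besides Lcn2, Day 3 mouse 2 held 3.84 CPM of the injury gene Havcr1, against 17 to 72.8 CPM in the rest of its group.

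In male Day 0 mice 1 to 4, Gdf15 was at 8.13, 19.7, 16.7 and 14.6 CPM. Its values were 17.9, 48.6, 35.6 and 88.2 CPM at Day 2, 78.5, 49.3, 52.1 and 34.6 CPM at Day 3, and 72.7, 24.2, 45.1 and 15.3 CPM at Day 5, the value of 72.7 CPM being that of the library labelled male Day 5 mouse 1. All 4 Day 3 males lay above the Day 0 males, and the Day 2 and Day 5 ranges overlapped Day 0. The log2 fold change was 1.85 at Day 3 (SE 0.319, adjusted p = 0.00956), a call that held in all 8 fits with 1 mouse left out. At Day 2 the log2 fold change was 1.69 (SE 0.457, adjusted p = 0.0663) and at Day 5 1.47 (SE 0.459, adjusted p = 0.051), neither of which passed by edgeR as fitted for the report. Day 2 passed in 3 of 8 other fits, by DESeq2 (adjusted p = 0.00383), limma voom (adjusted p = 0.013) and a fit over all 8 groups (adjusted p = 0.0469). Day 5 passed in 2 of 8, by DESeq2 (adjusted p = 0.0135) and with at least 10 counts in every library (adjusted p = 0.0426). With edgeR, the Day 5 value without the library labelled male Day 5 mouse 1 was 1.004 (adjusted p = 0.0981), and without Day 5 mouse 4 it was 1.73 and passed (adjusted p = 0.0444). The 3 comparisons of a sex share its Day 0 mice.

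Ordered by group mean, Gdf15 was highest in female Day 5 (111 ± 43 CPM, SD, n = 4), female Day 3 (98.1 ± 66.5) and female Day 2 (78.8 ± 30). Male Day 3 (53.6 ± 18.3), male Day 2 (47.6 ± 29.8) and male Day 5 (39.3 ± 25.5) came next, and male Day 0 (14.8 ± 4.92) and female Day 0 (12.2 ± 3.51) were lowest. Each group overlapped its neighbour in this order.

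Sesn2 (chr4:132492032-132510501, minus strand) was called in females at Day 2. Female mice held 51.6, 55.9, 53.8 and 58.3 CPM at Day 0, 194, 131, 130 and 83.5 CPM at Day 2, 115, 48.5, 109 and 119 CPM at Day 3, and 103, 60.9, 114 and 132 CPM at Day 5. All Day 2 and Day 5 females lay above the Day 0 females, as did those of Day 3 except mouse 2, the same mouse in which Gdf15 was low. The log2 fold change was 1.30 at Day 2 (SE 0.263, adjusted p = 0.0419), 0.82 at Day 3 (SE 0.266, adjusted p = 0.0818) and 0.89 at Day 5 (SE 0.235, adjusted p = 0.157). Days 3 and 5 each passed in 2 of 8 other fits, by DESeq2 (adjusted p = 0.0349 and 0.0342) and limma voom (adjusted p = 0.00508 and 0.0137). The Day 2 call held in 2 of 8 fits with 1 mouse left out, being lost without any of Day 0 mice 1 to 3 or Day 2 mice 1 to 3 (adjusted p of 0.0503 to 0.15). Without Day 3 mouse 2 the edgeR value at Day 3 was 1.05 (adjusted p = 0.014), and without Day 0 mouse 4 the values at Day 3 (0.85, adjusted p = 0.0485) and Day 5 (0.93, adjusted p = 0.0351) passed as well. Over all genes, female fits with 1 mouse left out called up to 6774 at Day 3 and 2082 at Day 5, against 945 and 42 with all mice.

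Male Sesn2 values were 53, 68.2, 74 and 52.6 CPM at Day 0, 40.5, 88.1, 72.6 and 127 CPM at Day 2, 96.7, 64.8, 84.4 and 68 CPM at Day 3, and 78.2, 29.1, 47.4 and 32.5 CPM at Day 5. The male groups overlapped at every day, and at Day 5 the mice labelled 2, 3 and 4 lay below the Day 0 range. No male comparison passed, with log2 fold changes of 0.41, 0.34 and -0.35 at Days 2, 3 and 5 (adjusted p = 0.394, 0.183 and 0.444). Without the library labelled male Day 5 mouse 1 the Day 5 value was -0.69 (adjusted p = 0.0581), and limma voom, which called 54.9% of all genes, gave -0.79 (adjusted p = 0.00543) with it. In male Day 2 mouse 4, which had the group's highest Gdf15 and Sesn2, Havcr1 was at 63.5 CPM, the top of a group range that began at 1.29 CPM.

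**Figure D2:**
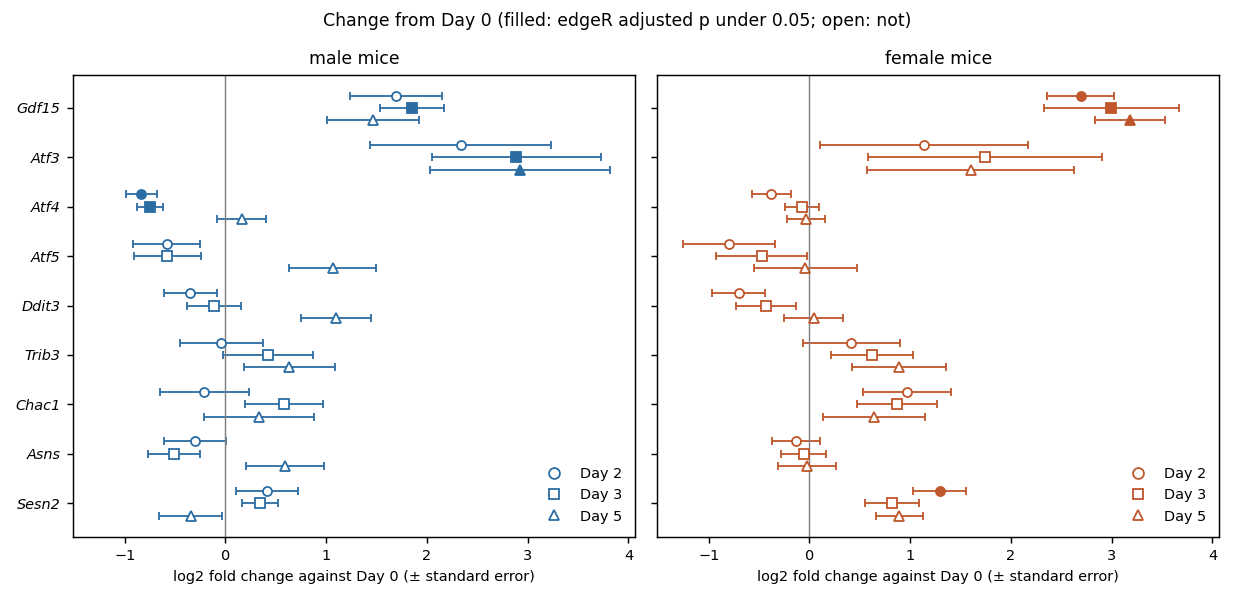
Log2 fold change against Day 0 with its standard error (horizontal axis) for the 9 genes tested (vertical axis), in male and female mice at Days 2, 3 and 5. Filled symbols passed an edgeR adjusted p under 0.05 and open symbols did not; Gdf15 in females lies at 2.69, 3.00 and 3.18, and Atf4 in males at -0.83 and -0.75 on Days 2 and 3.

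Across all genes tested, 3.16% were called in males at Day 2, 24.5% at Day 3 and 19.2% at Day 5, and 1.93%, 5.54% and 0.258% in females on these days. Of the 10 genes, 9 passed the filter on low counts, and Fgf21 was tested in no comparison. In males, 1 of the 9 was called at Day 2 (Atf4), 3 at Day 3 (Gdf15, Atf3 and Atf4) and 1 at Day 5 (Atf3). In females, 2 were called at Day 2 (Gdf15 and Sesn2), 1 at Day 3 and 1 at Day 5 (Gdf15 both times). The shares of the 9 called in males at Days 3 and 5 stand beside high backgrounds.

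Atf4 (chr15:80255184-80257541, plus strand), the central transcription factor of the pathway, fell in males at Days 2 and 3. Male mice held 91.5, 101, 119 and 83.6 CPM at Day 0, 56.9, 55.4, 48.6 and 58.8 CPM at Day 2, 59.8, 57.7, 58.1 and 59.9 CPM at Day 3, and 69.8, 111, 116 and 127 CPM at Day 5. All 8 males of Days 2 and 3 lay below all Day 0 males, and at Day 5 the ranges overlapped, the lowest value being that of the library labelled mouse 1. Atf4 fell by 0.83 on the log2 scale at Day 2 (SE 0.15, adjusted p = 0.035) and by 0.75 at Day 3 (SE 0.128, adjusted p = 0.00922). The Day 3 call held in all 8 fits with 1 mouse left out. The Day 2 call held in 2, with adjusted p of 0.0667 to 0.134 without any of Day 0 mice 1 and 2 and the 4 Day 2 mice. At Day 5 the log2 fold change was 0.16 (adjusted p = 0.661).

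Female Atf4 values were 102, 95.8, 74.9 and 82.9 CPM at Day 0, 71.5, 68.9, 74.2 and 59.3 CPM at Day 2, 83.4, 69, 91.1 and 96.6 CPM at Day 3, and 93.2, 91.9, 83.4 and 79.2 CPM at Day 5. The Day 2 females lay below the Day 0 females without overlap, by a narrow margin, and the other days overlapped Day 0. None passed by edgeR, with log2 fold changes of -0.38, -0.08 and -0.03 at Days 2, 3 and 5 (adjusted p = 0.251, 0.771 and 0.949). limma voom, which called many more of all genes than edgeR, called Day 2 lower (-0.47, adjusted p = 0.0149).

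Atf3 (chr1:191170296-191218039, minus strand), a transcription factor that is also an immediate early gene, rose in males at Days 3 and 5 from a very low level. Male mice held 0.705, 1.1, 0 and 2.64 CPM at Day 0, 4.24, 7.96, 2.69 and 6.95 CPM at Day 2, 10.7, 8.41, 7.67 and 5.32 CPM at Day 3, and 9.9, 8.91, 8.05 and 4.77 CPM at Day 5. Every treated male lay above every Day 0 male, though at Day 2 the lowest treated value, 2.69 CPM, was next to the highest Day 0 value, 2.64 CPM. The log2 fold change was 2.33 (SE 0.894, adjusted p = 0.128) at Day 2, 2.89 (SE 0.841, adjusted p = 0.0391) at Day 3 and 2.93 (SE 0.891, adjusted p = 0.0465) at Day 5. The Day 3 and Day 5 calls each held in 2 of 8 fits with 1 mouse left out. They were lost without Day 0 mouse 1 or 2 or any 1 mouse of the treated group, at adjusted p of 0.0774 to 0.103 for Day 3 and 0.069 to 0.118 for Day 5, and the Day 5 value without the library labelled mouse 1 was 2.80 (adjusted p = 0.069).

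Among females, Atf3 was at 1.36, 0.989, 0 and 9.14 CPM at Day 0, 4, 7.32, 9.06 and 5.19 CPM at Day 2, 15.1, 1.43, 8.43 and 14.3 CPM at Day 3, and 12.2, 7.82, 7.85 and 7.42 CPM at Day 5. Day 0 mouse 4 lay within or above the treated values, and Day 3 mouse 2 lay with the low Day 0 females. With all mice the log2 fold changes were 1.14, 1.74 and 1.60 at Days 2, 3 and 5 (adjusted p = 0.508, 0.324 and 0.469). Without Day 0 mouse 4 they were 2.97 (adjusted p = 0.0225), 3.58 (adjusted p = 0.0364) and 3.45 (adjusted p = 0.0303), so this mouse decided the female result. Without it 28.3%, 39.1% and 12.6% of all genes were called on these days. The sex difference in the response of Atf3 was not called at any day (adjusted p = 1, 0.972 and 0.745).

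For 6 immediate early genes measured beside Atf3 (Fos, Fosb, Jun, Junb, Egr1 and Ier2), the summed level in male Day 0 was 60.6 to 148 CPM, against 200 to 345 CPM at Day 2, 271 to 516 CPM at Day 3 and 291 to 526 CPM at Day 5, and 4, 5 and 6 of the 6 were called higher, beside 3.16%, 24.5% and 19.2% of all genes called. In females 0 of 6 were called on any day, beside 1.93%, 5.54% and 0.258% of all genes, and the sum was 73.3 to 416 CPM at Day 0, where mouse 4 was the highest, and 76.5 to 353 CPM at Day 3, where mouse 2 was the lowest. The part of these levels in the Atf3 values was not tested.

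Atf5 (chr7:44812256-44816658, minus strand), the factor linked to the mitochondrial unfolded protein response, and Ddit3 (chr10:127290774-127296288, plus strand), which encodes the pro-apoptotic factor CHOP, were not called on any day against Day 0 by edgeR as fitted for the report. Atf5 in males was 19.9, 21.7, 13.5 and 45.9 CPM at Day 0 and 20.6, 57.9, 58.1 and 63.8 CPM at Day 5, with 14.8 to 18.8 CPM at Day 2 and 15.4 to 18.5 CPM at Day 3. Ddit3 in males was 7.16, 9.6, 17.2 and 11.8 CPM at Day 0 and 12.8, 31.3, 27.9 and 22.6 CPM at Day 5, with 8.1 to 9.99 CPM at Day 2 and 8.67 to 12.4 CPM at Day 3. For both genes the Day 5 mice labelled 2, 3 and 4 lay above all Day 0 males, and the library labelled mouse 1 lay inside their range.

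At Day 5 in males the log2 fold change was 1.07 for Atf5 (SE 0.431, adjusted p = 0.108) and 1.095 for Ddit3 (SE 0.349, adjusted p = 0.0538). The Ddit3 value lay at the threshold and passed in 6 of 8 other fits, with adjusted p of 0.0252 by DESeq2, 4.49e-05 by limma voom, 0.0359 with no filter, 0.0483 with at least 10 counts in every library, 0.00653 in a fit over all 8 groups and 0.0353 with the replicate block. Without the library labelled male Day 5 mouse 1, both passed, at 1.33 (adjusted p = 0.0284) for Atf5 and 1.32 (adjusted p = 0.0144) for Ddit3, in a fit that called 26% of all genes. Atf5 also passed without Day 0 mouse 4 (1.502, adjusted p = 0.0289) and Ddit3 without Day 0 mouse 3 (1.38, adjusted p = 0.0235).

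In females, Atf5 was 26.1, 70.8, 11.9 and 24.4 CPM at Day 0, and Ddit3 17.2, 25.5, 19.9 and 12.5 CPM. The highest Day 0 female for both was mouse 2, the library with high hepatocyte markers, and the part of those markers in the 2 values was not tested. Female Atf5 was 15.4 to 26.1 CPM at Day 2, 22.6 to 25.5 CPM at Day 3 and 26.4, 54.2, 29.5 and 19.2 CPM at Day 5. Ddit3 was 9.49 to 14.8 CPM at Day 2, 8.12 to 17.9 CPM at Day 3 and 19.7, 24.2, 21.6 and 11.6 CPM at Day 5. The Atf5 log2 fold change at Day 2 was -0.80 (adjusted p = 0.289) with Day 0 mouse 2 and -0.10 (adjusted p = 0.887) without it, and at Days 3 and 5 it was -0.47 and -0.04 with that mouse and 0.20 and 0.64 without it, none of which passed. Ddit3 in females at Day 2 was at -0.70 (adjusted p = 0.135), and passed without Day 0 mouse 4 (-0.85, adjusted p = 0.0221).

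The genes Atf5 and Ddit3 overlap other genes on the opposite strand, Nup62 (95 to 806 counts) and Mars (222 to 1784 counts). Whether the counting used strand is not given in the sources used here, so reads of these pairs cannot be told apart. Ddit3 has a second row in the table, at 0 counts in all 32 libraries, which was not used.

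**Figure D3:**
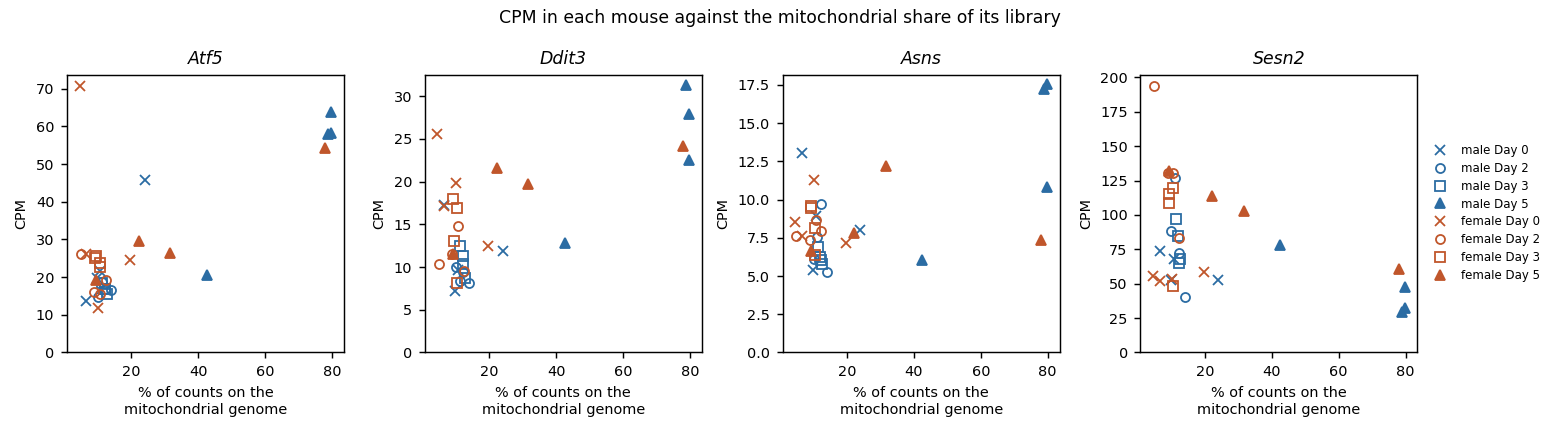
CPM of Atf5, Ddit3, Asns and Sesn2 (vertical axes, linear from 0) against the percent of counts on the mitochondrial genome (horizontal axis), with 1 symbol per mouse, colour for sex and shape for day. The 4 libraries with 77.9 to 79.8% mitochondrial counts, all of Day 5, hold 54.2 to 63.8 CPM of Atf5 and 22.6 to 31.3 CPM of Ddit3.

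Some of the Day 5 values differed between libraries of high and low mitochondrial share. Male Day 5 mice 2, 3 and 4 and female Day 5 mouse 2 had 77.9 to 79.8% mitochondrial counts, and the library labelled male Day 5 mouse 1 had 42.5%. Among these 4 libraries Atf5 was 54.2 to 63.8 CPM, against 11.9 to 70.8 CPM in the other 28, and Sesn2 was 29.1 to 60.9 CPM, against 40.5 to 194 CPM. The highest Atf5 value, 70.8 CPM, was in female Day 0 mouse 2, with 4.49% mitochondrial counts. Asns was 10.8 to 17.6 CPM in the 3 males and 7.33 CPM in the female, which lay within the 6.64 to 12.2 CPM of its group. Atf3 in that female was 7.82 CPM, beside 12.2, 7.85 and 7.42 CPM in the females of 31.6%, 22.2% and 9.3% mitochondrial counts. With mitochondrial genes left out of the fit, the male Day 5 log2 fold changes were 1.03 for Atf5 and 1.07 for Ddit3 (adjusted p = 0.125 and 0.0576). Atf3 kept its size at 2.89 but missed the threshold (adjusted p = 0.0512). Summed leukocyte markers were 81.6 to 361 CPM and adipocyte markers 626 to 3370 CPM in male Day 5, against 96.6 to 155 CPM and 319 to 1920 CPM in male Day 0. The part of the share and of these markers in the Day 5 values was not tested.

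Of the target genes that carry out the response, Asns, Trib3 and Chac1 passed in no comparison with Day 0 by edgeR as fitted for the report. In males, limma voom called Asns (1.07, adjusted p = 0.00839) and Trib3 (1.31, adjusted p = 0.00213) higher at Day 5. It also called Chac1 higher at Day 3 (0.85, adjusted p = 0.0387), and it called most genes tested in males on these days. The values that follow are from edgeR. Asns (chr6:7675169-7693254, minus strand), which makes asparagine, held 5.42 to 13 CPM in male Day 0 and 5.79 to 6.92 CPM in male Day 3, and 6.04, 17.2, 17.6 and 10.8 CPM in male Day 5. Its female values lay between 6.38 and 12.2 CPM in all 4 groups, with log2 fold changes of -0.13, -0.06 and -0.02 at Days 2, 3 and 5 (adjusted p = 0.751, 0.874 and 0.973). The male values were -0.30, -0.51 and 0.59 (adjusted p = 0.529, 0.17 and 0.303).

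Trib3 (chr2:152337422-152344032, minus strand) stayed at 0.938 to 5.05 CPM and Chac1 (chr2:119351229-119354381, plus strand), an enzyme that degrades glutathione, at 0.701 to 3.95 CPM across the 32 mice. These levels rested on 14 to 167 counts of Trib3 and 5 to 171 counts of Chac1 per library. All treated groups overlapped Day 0 for both genes. In females the log2 fold changes were 0.42, 0.62 and 0.89 for Trib3 (SE 0.481, 0.407 and 0.466) and 0.97, 0.87 and 0.64 for Chac1 (SE 0.439, 0.396 and 0.508) at Days 2, 3 and 5. Their adjusted p values ran from 0.171 to 0.607. In males at Day 3, Chac1 passed without Day 0 mouse 3 (0.996, adjusted p = 0.0251) and not with all mice (0.58, adjusted p = 0.292).

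Fgf21 (chr7:45613886-45615490, minus strand), an endocrine factor made mainly by the liver, was at or near 0. It had 0 counts in 19 of 32 libraries, 1 or 2 counts in 12 and 26 counts in male Day 0 mouse 3 (0.948 CPM). A limit of 3 counts, for counting error alone, corresponds to 0.0669 to 0.483 CPM depending on the library. The same mouse held 22 counts of Gfral, the receptor of GDF15, which is known from the hindbrain, and 30 of the 32 libraries held 0 counts of it. No change of Fgf21 was detectable at this depth.

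The second question was whether Day 3 differed from Day 2. None of the 9 genes was called in either sex, and edgeR called 0% of all genes (0 of 16232 in males and 0 of 16974 in females), beside 1410 and 678 genes at an unadjusted p under 0.05. DESeq2 called 61 and 74 genes, none of them among the 9. The largest difference was for Chac1 in males, at a log2 fold change of 0.81 (SE 0.28, adjusted p = 0.559).

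The third question was whether males and females differed. At Day 3, 3 of the 9 genes were lower in males, namely Atf4, Atf5 and Asns, where 21.3% of all genes were called and 10.7% were lower in males. Atf4 differed by a log2 fold change of -0.56 (SE 0.0972, adjusted p = 0.00468), with male values of 57.7 to 59.9 CPM below all female values of 69 to 96.6 CPM. Atf5 differed by -0.55 (SE 0.076, adjusted p = 0.00168), with male values of 15.4 to 18.5 CPM below female values of 22.6 to 25.5 CPM. Both calls held in all 8 fits with 1 mouse left out, and both were lost in a fit over all 8 groups (adjusted p = 0.106 and 0.755), which called 0.988% of all genes.

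Asns at Day 3 was 6.92, 6.02, 6.26 and 5.79 CPM in males and 9.44, 6.38, 9.57 and 8.12 CPM in females, and female mouse 2 overlapped the males. The log2 fold change was -0.45 (SE 0.141, adjusted p = 0.0468). It held in 1 of 8 fits with 1 mouse left out, the one without female mouse 2, and had an adjusted p of 0.0574 to 0.13 without any 1 of the other mice. Without female Day 3 mouse 2, Gdf15 (-1.27, adjusted p = 0.0327), Ddit3 (-0.61, adjusted p = 0.00695) and Sesn2 (-0.57, adjusted p = 0.00824) were also lower in males, in a fit that called 34.6% of all genes.

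On the other days edgeR called 0 of the 9 genes between the sexes, where 0.449% of all genes were called at Day 0, 1.47% at Day 2 and 0.276% at Day 5. DESeq2 called Gdf15 (adjusted p = 0.0296) and Sesn2 (adjusted p = 0.0404) at Day 5, and the fit over all 8 groups Sesn2 (adjusted p = 0.0271). limma voom called Ddit3 at Day 0, Gdf15, Atf4, Ddit3, Chac1 and Sesn2 at Day 2, and Gdf15, Atf5 and Sesn2 at Day 5. By edgeR at Day 5, Gdf15 was lower in males by a log2 fold change of -1.44 (SE 0.47, adjusted p = 0.162) and Sesn2 by -1.07 (SE 0.322, adjusted p = 0.147), with overlapping ranges. Without the library labelled male Day 5 mouse 1 these were -1.86 (adjusted p = 0.0122) and -1.37 (adjusted p = 0.00517), and Atf5 (1.01, adjusted p = 0.044) and Asns (0.95, adjusted p = 0.0387) were higher in males, in a fit that called 17% of all genes.

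The change from Day 0 was also compared between the sexes as an interaction, in which 0%, 0.0114% and 0.243% of all genes were called at Days 2, 3 and 5. Of the 9 genes 0 passed by edgeR on any day (738, 1252 and 2568 of all genes had an unadjusted p under 0.05), so the calls of Gdf15 and Sesn2 in females and of Atf4 and Atf3 in males do not show that the sexes responded differently. limma voom, which called many more of all genes, called Atf4 at Day 3 (adjusted p = 0.0109). At Day 5 it called Gdf15, Atf5, Ddit3 and Sesn2 (adjusted p = 0.00752, 0.00622, 0.00101 and 0.000764). By edgeR, the male minus female difference in log2 fold change at Day 5 was -1.74 for Gdf15 (SE 0.595, adjusted p = 0.181) and -1.26 for Sesn2 (SE 0.398, adjusted p = 0.151). Without the library labelled male Day 5 mouse 1 it was -2.22 (adjusted p = 0.0235) and -1.62 (adjusted p = 0.00951), where 6.74% of all genes were called. For Atf4 at Day 3 it was -0.69 (SE 0.203, adjusted p = 0.503).

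The genes whose values were most like those of Gdf15 were then found by the root mean square difference of log2 CPM, each gene centred on its mean over the 32 libraries, among 15044 protein-coding genes. Gdf15 itself had an SD of 1.33 on this scale. The 5 nearest were Plk2 (0.508), Ccng1 (0.591), Ephx1 (0.635), Aen (0.637) and Fkbp5 (0.652). Plk2 was 6.41 ± 0.898 CPM in female Day 0 and 39.6 ± 11.6 CPM in female Day 2 (SD, n = 4), and Ccng1 went from 125 ± 28 to 712 ± 271 CPM between the same groups. Of the other genes of the pathway, Sesn2 ranked 78 (0.908) and Chac1 270 (1.03). Trib3 ranked 1322, Atf3 4739, Asns 7025, Ddit3 7355, Atf4 8551 and Atf5 11149. The distance depends on how widely a gene varies as well as on its pattern, and by a correlation over the 32 libraries, which ignores the first, Atf3 came ahead of Chac1 and Trib3. The 32 points share sex, day and library, so these are descriptions of likeness and carry no test.

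**Figure D4:**
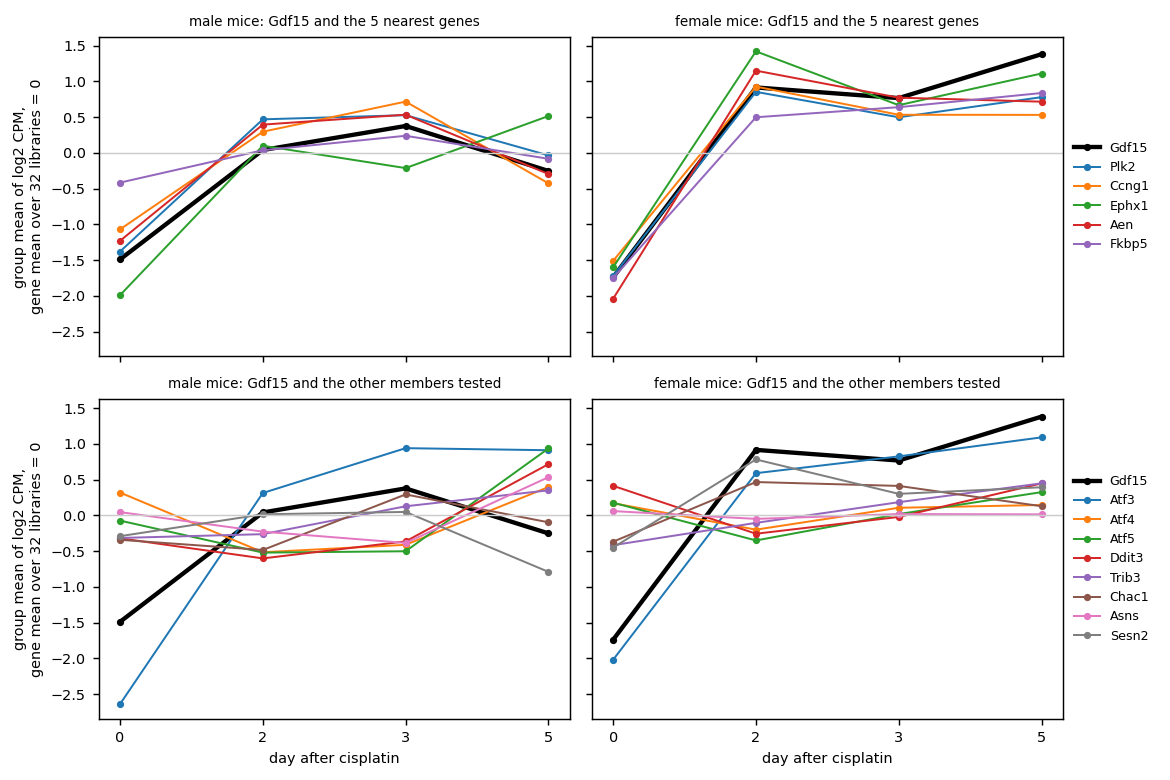
Group mean of log2 CPM with the mean of each gene over the 32 libraries set to 0 (vertical axis) by day (horizontal axis, evenly spaced categories), in male and female mice, for Gdf15 in black with the 5 genes nearest to it (upper panels) and with the other 8 genes tested (lower panels). The nearest genes lie at root mean square differences of 0.508 to 0.652 from Gdf15, and Atf4 ranks 8551 and Atf5 11149 of 15044.

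The rest of the pathway was described with 69 further genes in 8 lists. Genes called higher and lower numbered 0 and 0 of 67 tested in males at Day 2, 7 and 7 of 67 at Day 3, and 6 and 3 of 67 at Day 5. In females they numbered 1 and 2 of 68 at Day 2, 2 and 5 of 68 at Day 3, and 0 and 0 of 68 at Day 5. Beside them stand the 3.16%, 24.5% and 19.2% of all genes called in males and the 1.93%, 5.54% and 0.258% in females, so the shares called in males at Days 3 and 5 are no larger than those of all genes, those in females at Days 2 and 3 (3 and 7 of 68) are above them, and the changes below are descriptions of single genes. The median log2 fold change of those tested lay between -0.08 and 0.18 in these comparisons, where that of all genes tested lay between 0.02 and 0.04. Of the 33 calls named by the rule of the 3 largest changes per list, 4 held in all 8 fits with 1 mouse left out (Nupr1, Ppp1r15a, Niban1 and Shmt2 in males at Day 5) and 29 were lost in at least 1. All 3 female Day 2 calls were lost without female Day 0 mouse 2 (adjusted p of 0.121 to 0.152), as were all 7 female Day 3 calls (adjusted p = 0.137), and without female Day 3 mouse 2 the Day 3 calls of Nupr1, Slc3a2, Hspe1 and Clpp were lost (adjusted p of 0.0616 to 0.0865). Gdf15 had the same edgeR adjusted p of 0.137 at Day 3 without female Day 0 mouse 2. Over all genes, female fits with 1 mouse left out called 21 to 4776 genes at Day 2 and 0 to 6774 at Day 3. With all mice these numbers were 320 and 945, so such losses were not particular to the pathway genes. All 9 male Day 5 calls held without the library labelled mouse 1 (adjusted p of 0.000639 to 0.0384).

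Upstream of ATF4, 2 of 7 genes of eIF2alpha (Eif2s1) and its kinases and phosphatase subunits rose in males at Day 3, the kinases Eif2ak2 (PKR, 0.87, adjusted p = 0.0265) and Eif2ak4 (GCN2, 0.82, adjusted p = 0.0364). At Day 5 the 2 that rose were Eif2ak4 (1.29, adjusted p = 0.0139) and Ppp1r15a (1.35, adjusted p = 0.0123), which encodes GADD34, the phosphatase subunit that ends the response. With 7 genes, 2 calls are close to the 24.5% and 19.2% of all genes called in males on these days. None of the 7 passed in females, where 0.258 to 5.54% of all genes were called. The values are log2 fold changes from edgeR, as are those that follow.

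Among 6 further transcription factors and regulators, Nupr1, a small chromatin protein induced by stress, rose in males at Day 5 (3.51, SE 0.578, adjusted p = 0.00872). Its CPM in male Day 0 was 15.9, 18.2, 22.2 and 35.6 and in male Day 5 63.2, 434, 160 and 339, the lowest being the library labelled mouse 1. In females Nupr1 fell by 1.07 at Day 2 (adjusted p = 0.0314) and by 0.67 at Day 3 (adjusted p = 0.0465), from 39.5 to 47.5 CPM at Day 0 to 16.8 to 23.9 CPM at Day 2. Female Day 5 mouse 2, with the high mitochondrial share, held 179 CPM, against 17.7 to 45 CPM in the rest of its group. Nfe2l2, which encodes the antioxidant regulator NRF2, rose in males at Day 3 (0.56, adjusted p = 0.0293) and in females at Day 2 (0.93, adjusted p = 0.0499) and Day 3 (1.055, adjusted p = 0.0465).

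Few genes of amino acid transport and synthesis were called. Of the transporters, 1 of 7 tested passed in males at Day 3, 2 of 7 at Day 5 and 2 of 8 in females at Day 3, and of 7 genes of serine, proline and one-carbon synthesis 1 passed in each of these comparisons, where 24.5%, 19.2% and 5.54% of all genes were called. Slc7a1, a carrier of cationic amino acids, rose in males at Day 3 (1.08, adjusted p = 0.0253) and Day 5 (1.38, adjusted p = 0.0172), and Slc38a2 rose at Day 5 (0.88, adjusted p = 0.019). In females at Day 3, Slc7a5 rose (1.76, adjusted p = 0.0465) while its partner chain Slc3a2 fell by 0.72 (adjusted p = 0.0479). Phgdh, the entry enzyme of serine synthesis, fell by 1.13 in males (adjusted p = 0.0251) and by 0.95 in females (adjusted p = 0.048) at Day 3, and mitochondrial Shmt2 fell by 1.87 in males at Day 5 (adjusted p = 0.0129). Of 12 aminoacyl-tRNA synthetases, Eprs rose (0.55, adjusted p = 0.0351) and Wars fell by 0.59 (adjusted p = 0.0341) in males at Day 3, and none passed elsewhere.

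In the list of 9 other ATF4 targets, Niban1 rose in males at Day 3 (1.04, adjusted p = 0.0198) and Day 5 (1.48, adjusted p = 0.013), Gpt2 rose at Day 3 (0.59, adjusted p = 0.0384) and Eif4ebp1, a brake on translation, fell by 1.12 at Day 3 (adjusted p = 0.0219). Of 14 genes of the ATF6 and XBP1 arms of the unfolded protein response, Sdf2l1 fell by 0.90 (adjusted p = 0.0256) and Calr by 0.47 (adjusted p = 0.0421) in males at Day 3, and 0 of 14 passed in any other comparison with Day 0. Of the 5 genes of the mitochondrial unfolded protein response, Hspe1 fell in males at Day 3 (by 1.62, adjusted p = 0.0213) and Day 5 (by 1.52, adjusted p = 0.0294), and in females at Day 2 (by 1.71, adjusted p = 0.0474) and Day 3 (by 1.59, adjusted p = 0.0479). Clpp fell by 1.201 in males and 1.56 in females at Day 3 (adjusted p = 0.024 and 0.048), and Hspd1 fell by 1.60 in males at Day 5 (adjusted p = 0.0137).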

How the data were processed

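Kidney RNA of 32 mice was sequenced as paired 150-base reads on an Illumina instrument. The authors deposited raw counts per gene and FPKM values in 2 tables of the whole series; per the labels, HTSeq and DESeq2 were used, and the aligner is not given in the sources used here. The deposited coordinates matched GENCODE M21 (GRCm38) for 53499 of 54409 shared genes and all 11 rows of the genes described, so GRCm38 is given, although the labels list GRCm39.

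Tests on the counts used the quasi-likelihood method of edgeR 4.0.16 (R 4.3.3; TMM, filterByExpr, robust), fitting the groups compared, in 15 comparisons with Benjamini-Hochberg adjustment over all genes tested. The SE is the log2 fold change over the square root of F. CPM used TMM factors over 32 libraries, and log2 CPM a prior count of 2. DESeq2 1.42.0, limma 3.58.1, other filters and fits and leaving out each mouse were alternatives. Scripts were tested on simulated data. Replicate numbers were not taken to pair mice (in 0 of 12 comparisons did every same-numbered pair correlate over 0.1). The most pairs over 0.1 were 3, for males against females at Day 0 (highest r 0.481).

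The genes and lists were chosen with earlier results of these data known. Named pathway genes were up to 3 per list and day with the largest called change. P-values measure the spread between the mice the labels give as replicates. Depth was 16502107 to 35961325 counts per library.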

Additional observations from a re-analysis of the deposited data

Results flagged for a closer look

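Of 80 groups of 4 mice examined (10 genes in 8 groups), 10 had a mouse whose CPM stood apart by Dixon's 95% criterion, which chance alone meets in about 1 of 20 groups. Atf3 was at 9.14 CPM in female Day 0 mouse 4 (others 0 to 1.36) and at 12.2 CPM in female Day 5 mouse 1 (others 7.42 to 7.85). Atf5 was at 20.6 CPM in the library labelled male Day 5 mouse 1 (others 57.9 to 63.8). Sesn2 was at 48.5 CPM in female Day 3 mouse 2 (others 109 to 119). Fgf21 was at 0.948 CPM in male Day 0 mouse 3 (others 0 to 0.108). The other 5 were Fgf21 values of 1 or 2 counts where the rest of the group had 0, namely 0.0324, 0.0651, 0.0495 and 0.0708 CPM in mouse 1 of female Days 0, 2, 3 and 5 and 0.0559 CPM in the library labelled male Day 5 mouse 1.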

How the results depend on the processing

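No result changed direction with a call under any alternative; of the gene results 2235 kept their side of the threshold, 72 gained a call and 53 lost one. The counts of the 9 genes called moved as follows, males at Days 2, 3 and 5 against Day 0 having 1, 3 and 1 and females 2, 1 and 1 in the report. limma voom with quality weights gave 4, 5 and 7 in males, 6, 2 and 3 in females, 1, 5, 5 and 3 between the sexes at Days 0, 2, 3 and 5, and 1 and 4 for the sex difference in the response at Days 3 and 5, where it called 46.4%, 57.2% and 54.9%, 50.3%, 47.9% and 17.6%, 25.1%, 19.3%, 43% and 29.8%, and 12.1% and 32.6% of all genes. DESeq2 gave 3 in males at Days 2 and 5, 2 in females at Days 3 and 5, and 2 between the sexes at Day 5, beside 9.31%, 14.3%, 11%, 2.43% and 3.76% of all genes. A single fit over 8 groups gave 2 in males at Days 2 and 5, and 0 and 1 between the sexes at Days 3 and 5, beside 12.9%, 31.1%, 0.988% and 9.69% of all genes. Requiring a log2 fold change over 1.5 gave 0 and 2 in males at Days 2 and 3, 1 in females at Day 2 and 0 between the sexes at Day 3. Female Day 3 had 0 with DESeq2 size factors and with no filter, male Day 3 had 2 with no filter (Atf3 lost, adjusted p = 0.0669), and male Day 5 had 2 with at least 10 counts in every library and 0 without mitochondrial genes. With the replicate block the counts were 0 in males at Days 2 and 3, 1 in females at Day 2, 0 in females at Day 3 and 2 between the sexes at Day 3 (Asns lost, adjusted p = 0.0509), beside 0.0312%, 0.566%, 0.314%, 0% and 17.6% of all genes called, so most calls over all genes were lost there too except between the sexes. At male Day 5 the block kept the count of 1 but lost Atf3 (adjusted p = 0.0747) and gained Ddit3 (adjusted p = 0.0353). The mice share only a number, and the block changed no other call of the 9 genes. Leaving out 1 mouse gave 0 to 2, 2 to 4 and 0 to 2 in males, 1 to 4, 0 to 3 and 1 to 3 in females, 2 to 6 between the sexes at Day 3, 0 to 4 at Day 5 and 0 to 2 for the sex difference at Day 5. The cause of these changes was not tested. Counts over all genes moved as much, from 0 to 6774 in females at Day 3 against 945. Limits: with 4 mice per group a gene near the threshold is called or not with 1 mouse, and Fgf21, Trib3 and Chac1 rest on few counts.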

Other observations

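Relatives and receptors of the genes described were also measured, 8 of 9 being tested, with 9 calls against Day 0 in males (1, 2 and 6 at Days 2, 3 and 5, beside 3.16%, 24.5% and 19.2% of all genes called) and 0 in females (beside 1.93%, 5.54% and 0.258%). Trib1, a pseudokinase related to Trib3, rose 2.14-fold at Day 2 (edgeR adjusted p = 0.0361) and by log2 fold changes of 0.98 at Day 3 (adjusted p = 0.0147) and 1.04 at Day 5 (adjusted p = 0.0257), from 11.8 ± 2.55 CPM at Day 0 to 25 ± 3.93 CPM at Day 2 (SD, n = 4). Trib2 fell by 1.33 at Day 5 (adjusted p = 0.0199). Sesn3 rose at Day 3 (0.70, adjusted p = 0.0294) and Day 5 (0.86, adjusted p = 0.0282), and Sesn1 at Day 5 (0.85, adjusted p = 0.022), the day on which Sesn2 was at -0.35 (adjusted p = 0.444). Chac2 fell by 1.59 (adjusted p = 0.0198) and Fgf1 by 1.59 (adjusted p = 0.0137) at Day 5. Klb and Fgfr1, the receptor chains of FGF21, passed on no day by edgeR as fitted for the report. Fgfr1 passed in 1 of 8 other fits in males at Days 2, 3 and 5 and in females at Days 2 and 3. Klb passed in 1 of 8 in males at Day 5. In females Trib1 went from 14.3 ± 4.67 CPM at Day 0 to 28.9 ± 4.42 CPM at Day 2. It passed there in 5 of 8 other fits at Day 2, 3 of 8 at Day 3 and 1 of 8 at Day 5. None of the 8 genes passed by edgeR when the response was compared between the sexes. Of the 9 male calls, 0 held in all 8 fits with 1 mouse left out, the most stable being Fgf1 (7 of 8) and Trib1 at Day 3 (6 of 8).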
